A study of Mus musculus with 2 samples.

Results

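The 8 genes described here make up the 7SK small nuclear ribonucleoprotein (snRNP) and the positive transcription elongation factor P-TEFb. They are the noncoding RNA 7SK (Rn7sk), the proteins Larp7 and Mepce that hold and cap it, the inhibitors Hexim1 and Hexim2, the kinase Cdk9 and its cyclins Ccnt1 and Ccnt2. They were taken by gene symbol, and all 8 were found among the 55536 genes of the annotation, 7 of them protein-coding. Rn7sk was the only gene (1) with 7SK in its symbol.

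The RNA came from neutrophils of the spleen of virgin male B6CASTF1/J mice aged 65 days, a first-generation cross with C57BL/6 on the maternal and CAST/EiJ on the paternal side. There is 1 untreated group with 2 libraries, named replicate 1 and replicate 2, so no condition could be compared. Total RNA (300 ng per library, with ERCC spike-in RNA) was sequenced from a strand-preserving library. The donor identifier is identical for both, so separate animals are not shown, and the spread between these libraries may be technical.

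P-TEFb is the kinase complex that releases RNA polymerase II from its pause shortly after the start of a gene. Cdk9 with a T-type cyclin phosphorylates the pausing factors and the polymerase tail. Much of the P-TEFb of a cell can be held inactive on 7SK RNA by a HEXIM protein, and signals that free it from the snRNP let elongation proceed. In neutrophils and other innate immune cells, release of paused polymerase is part of how inflammatory genes are induced.

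7SK RNA is transcribed by RNA polymerase III from chromosome 9 (mm10 chr9:78175303-78175633, minus strand), as a single-exon gene with 1 transcript of 331 nt. Its 5′ and 3′ ends are shown because the proteins below bind there. HEXIM proteins recognise GATC repeats (GAUC in the RNA) in the 5′ stem-loop, and Larp7 holds the 3′ hairpin and the terminal U run. In GENCODE M21 the mouse sequence reads as follows, in DNA letters, with capitals for each GATC in the first stretch and for the T run at the very end in the second.
Rn7sk, bases 1 to 120: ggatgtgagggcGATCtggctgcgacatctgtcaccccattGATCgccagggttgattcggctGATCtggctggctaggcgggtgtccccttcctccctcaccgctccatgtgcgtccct
Rn7sk, bases 272 to 331: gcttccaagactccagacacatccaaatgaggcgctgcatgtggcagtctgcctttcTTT
The RNA holds 3 GATC, starting at bases 13, 42 and 64, all within the first 120 bases, and it ends in 3 T. Its GC content was 58.0%.

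Levels are given as TPM, a transcript share that scales counts by effective transcript length and sums to 1000000 per library over all entries, noncoding RNA included. Unless kallisto is named, values come from the tables with the RSEM layout, and a mean ± SD has n = 2. The libraries held 18387963 and 18090108 expected counts, so that 1 count on a gene of 1 kb effective length was worth 0.0458 TPM in replicate 1 and 0.0538 TPM in replicate 2. Protein-coding genes held 32.8% and 45.4% of the TPM and 7SL RNA 43.8% and 31.6%. ERCC spike-ins had 1.65 times as many counts in replicate 1. All 12 neutrophil markers on the list were present, with a summed level of 37547 and 75302 TPM. By the exact binomial test described below, all 12 were called higher in replicate 2, against 17.0% of all genes tested. Their median log2 ratio of replicate 1 over replicate 2 in that test was -0.42, a smaller gap than that of the summed TPM. The 25 markers of B, T and NK cells, macrophages, erythroid cells, platelets and stroma summed to 137.8 and 207.0 TPM, of which the monocyte and macrophage list gave 83.2 and 99.4 TPM, mostly Csf1r. B cell markers were at 4.49 and 17.4 TPM (4 of 5 called) and erythroid markers at 30.6 and 73.6 TPM (3 of 3 called), both higher in replicate 2. Platelet markers were at 16.5 and 12.2 TPM (3 of 3 called), higher in replicate 1. Of all genes tested, 17.0% were called higher in replicate 2 and 15.0% higher in replicate 1. Of these 25 markers, 12 were below 1 TPM in both libraries, and Ncr1 was at 0 counts in both. The part of cell makeup and RNA composition in the values below was not tested, and fewer cells of a type cannot be told apart from less RNA per cell.

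7SK RNA stood far above all other members. Rn7sk was measured at 39005 TPM in replicate 1 and 57616 TPM in replicate 2 (48311 ± 13160 TPM), the 3rd highest mean level of all genes. Replicate 2 was the higher library, by 1.48 times, and kallisto gave the same order with 45079 and 63526 TPM. Rescaled to the TPM of protein-coding genes alone, which took unequal shares of the libraries, 7SK stood at 118807 and 126873, a much smaller gap. On this per-length scale the 7SK level was 506 times that of Cdk9 in replicate 1 and 704 times in replicate 2, a log2 ratio of 9.22 ± 0.34. These are RNA ratios and give no protein amounts. 7SK took 3.90% and 5.76% of the TPM but only 1.07% and 1.37% of the expected counts, since the RNA is short. The only genes with a higher mean level than 7SK were the 7SL entries Rn7s1 and Rn7s2, which have identical values.

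Kallisto gave 7SK fewer counts but a higher TPM than RSEM, and the cause of this was not tested. The expected counts were 196553 and 247204, against 141167 and 156875 estimated counts by kallisto. The TPM itself lay above the authors' deposited interval in both libraries, which ran from 37650 to 37986 TPM in replicate 1 and from 55345 to 55791 TPM in replicate 2. Of the 301 stretches of 31 bases (31-mers) in 7SK, 72.8% also occur in other annotated transcripts. These belong to 25 genes, such as Gm24447 and Gm26315, which share 70.1% and 68.1% of the 7SK 31-mers. All 25 genes together held 75.1 and 100.2 expected counts, so the counts that RSEM assigned to 7SK-like loci were almost all on Rn7sk itself.

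**Figure D1:**
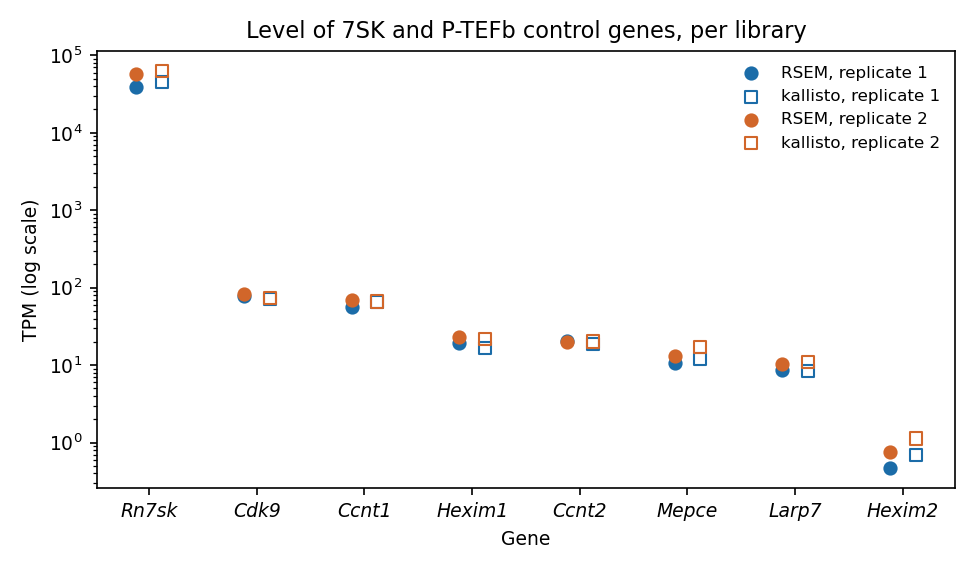
TPM (log axis) of each of the 8 genes in both libraries by RSEM (circles) and kallisto (squares), 1 point per library. 7SK lies between 39005 and 63526 TPM, the protein-coding genes lie at or below 81.8 TPM, and Hexim2 is lowest by both quantifiers.

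Mepce and Larp7, the stable protein partners of 7SK, were above the median of the expressed protein-coding genes and close to each other. Mepce (mm10 chr5:137781906-137787655, minus strand) is the methyltransferase that caps the 5′ end of 7SK. It was at 10.53 and 12.99 TPM (11.8 ± 1.74), above 67.4% of the 14633 protein-coding genes with any signal, whose median was 4.46 TPM. Larp7 (chr3:127536714-127553349, minus strand), the La-related protein that protects the 3′ end, was at 8.71 and 10.5 TPM (9.59 ± 1.24), above 63.1% of those genes. Larp7 was the lower in each library, with a log2 ratio to Mepce of -0.29 ± 0.03, and of -0.57 by kallisto. Across libraries the groups of values almost touched, with 10.53 TPM as the lower Mepce library and 10.46 TPM as the higher Larp7 library. This order therefore rests on a narrow margin, and it uses all transcripts of each gene. Of the leading transcripts, Larp7-201 was at 6.23 and 7.11 TPM and Mepce-201 at 6.61 and 9.12 TPM. By kallisto Larp7-201 was at 6.11 and 7.18 TPM and Mepce-201 at 5.82 and 8.16 TPM, so their order differed between the libraries.

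Larp7 was the one protein-coding member whose expected counts were not whole numbers, at 326.3 and 314.5. Its sequence overlaps that of another annotated gene, Gm12666, which shares 486 of its 31-mers and itself held 16.7 and 11.5 counts. In the leading transcript, Larp7-201, 23.5% of 31-mers occur elsewhere. The Larp7 gene also overlaps, on the opposite strand, the hairpins Mir302a, Mir302b, Mir302c, Mir302d and Mir367, all listed at 0 counts here. In these tables hairpins under the length that RSEM could count have no readable level.

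Of the HEXIM inhibitors, Hexim1 carried nearly all of the RNA. Hexim1 (chr11:103116231-103119725, plus strand), a single-exon gene with 1 transcript of 356 codons, was at 19.4 and 23.4 TPM (21.4 ± 2.84), above 78.7% of expressed protein-coding genes. Hexim2 (chr11:103132429-103139876, plus strand) starts 12704 bp downstream of the end of Hexim1 and encodes a related inhibitor of 313 codons. It was at 0.47 and 0.75 TPM (0.61 ± 0.198), above 28.3% of expressed protein-coding genes. The log2 ratio of Hexim1 to Hexim2, with 0.1 TPM added to each, was 4.94 ± 0.22, or 34.2-fold in replicate 1 and 27.7-fold in replicate 2, and kallisto gave 21.1-fold and 17.5-fold. The libraries did not overlap for this pair by either quantifier.

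The Hexim2 level is held by very few reads. It rested on 16 counts (95% exact Poisson interval 9.15 to 26.0, counting error only) and 11 counts (5.49 to 19.7). The counts were higher in replicate 1 while the TPM was higher in replicate 2. The effective length that RSEM assigned to the gene fell from 1564 to 793 nt between the libraries, because the short transcript Hexim2-204 took 0% of the gene in replicate 1 and 62.7% in replicate 2 (kallisto 0% and 69.2%). Hexim2-201 took 63.8% and 30.7% of the gene (kallisto 36.8% and 22.9%). With the mean effective length used in both, the levels were 0.624 and 0.505 TPM.

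The catalytic subunit Cdk9 was the most abundant protein-coding member. Cdk9 (chr2:32705784-32713076, minus strand) was at 77.0 and 81.8 TPM (79.4 ± 3.37), above 94.2% of expressed protein-coding genes. Its lower library exceeded the higher Ccnt1 library. The genes most like it in level over the 2 libraries were Prkar1a (77.2 and 81.3 TPM), Ddx39b (75.8 and 81.6 TPM) and Chd4 (75.8 and 81.6 TPM). For Hexim1 they were Foxm1, Kdm4a and Stfa2l1, and for Rn7sk mt-Rnr2, S100a9 and mt-Rnr1, the last 3 at log2 distances of 1.81 to 2.06. Likeness here is the Euclidean distance of log2(TPM + 0.1) over only 2 libraries.

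Among the cyclins, Ccnt1 was the higher. Ccnt1 (chr15:98538689-98570923, minus strand), which also serves as the cellular partner of the HIV Tat protein in human cells, was at 56.1 and 69.0 TPM (62.6 ± 9.10), above 92.5% of expressed protein-coding genes. Ccnt2 (chr1:127774164-127808061, plus strand), the alternative cyclin, was at 20.5 and 19.7 TPM (20.1 ± 0.559), above 77.5%. The log2 ratio of Ccnt1 to Ccnt2 was 1.63 ± 0.25, or 2.73-fold and 3.49-fold, and 1.76 by kallisto. Summed over both cyclins and over all transcripts of each gene, cyclin T RNA and Cdk9 RNA were nearly equal. The log2 ratio was 0.05 ± 0.09, and its sign differed between the libraries (-0.01 and 0.12). By kallisto the ratio was 0.24, with the cyclins higher in both libraries. These gene totals include transcripts not annotated as protein-coding. Coding transcripts held 22.4% of the kallisto TPM of Ccnt1, 31.6% of Ccnt2 and 63.9% of Cdk9, so coding cyclin T RNA lay below coding Cdk9 RNA.

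Set against the kinase, the inhibitors were the scarcer RNA. Hexim1 plus Hexim2 had a log2 ratio to Cdk9 of -1.85 ± 0.14, or 0.259 and 0.296 HEXIM transcripts per Cdk9 transcript, and kallisto gave a mean of -1.86. In the order of mean levels (Rn7sk, Cdk9, Ccnt1, Hexim1, Ccnt2, Mepce, Larp7, Hexim2), neighbours had no overlap between libraries except Hexim1 and Ccnt2. Those were at 19.4 and 20.5 TPM in replicate 1 and at 23.4 and 19.7 TPM in replicate 2, and they swapped places by kallisto. The order and the HEXIM ratio use all transcripts of each gene. On coding transcripts alone Ccnt1 fell below Hexim1 in each library, with Ccnt1-201 at 0.51 and 7.11 TPM and Ccnt1-208 at 9.50 and 8.95 TPM. Likewise the coding signal of Ccnt2, on Ccnt2-202 at 4.72 and 6.09 TPM, fell below Mepce.

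The gene levels of both quantifiers lay close together. None (0) of the 7 members with a mean of at least 1 TPM differed over 2-fold between kallisto and RSEM in the same direction in both libraries, against 13.2% of the 13328 genes compared. Hexim2 was below that minimum. Among protein-coding genes alone the background was 4.19%, so 0 of the 6 protein-coding members compared is near it. For 7SK the kallisto level was 1.16 and 1.10 times the RSEM level, in a class of RNA (misc_RNA) where 50.9% of 55 genes were apart. Mepce had the widest gap among these 7, with kallisto at 1.14 and 1.32 times RSEM.

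The transcripts behind these gene levels differed in kind. The 5 Hexim2 transcripts and the 1 Hexim1 transcript are all protein-coding, and all signal of Mepce was on coding transcripts, mostly Mepce-201 (666 codons) and the short Mepce-202 (172 codons). Their shares of TPM by kallisto were 48.5% and 47.5% for Mepce-201 and 43.3% and 43.6% for Mepce-202. By RSEM they were 62.8% and 70.3% against 37.2% and 27.6%. Mepce-202 is only 524 nt long and rested on few reads, with 43.9 of 531 and 46.1 of 583 kallisto estimated counts. Its deposited RSEM interval in replicate 2 ran from 0.000694 to 4.56 TPM, so its share is poorly determined. In Larp7, coding transcripts held 68.9% ± 5.97 of the kallisto TPM, all of it on Larp7-201 (570 codons), and transcripts with a retained intron held the other 31.1%, namely Larp7-202 (14.4% and 11.2%) and Larp7-204 (12.4% and 24.0%). For Cdk9 the coding share was 63.9% ± 4.87, with 22.8% on transcripts annotated for nonsense-mediated decay and 13.3% on retained-intron transcripts. The main decay transcript, Cdk9-208, held 19.3% and 20.5%. For reference, the median coding share over 9485 genes with several transcripts was 69.8%.

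Both cyclins had coding shares far below that median. Coding transcripts held 22.4% ± 12.1 of the Ccnt1 TPM by kallisto (13.8% and 30.9%) and 20.6% by RSEM, and 6.55% of the genes compared had a lower share. The rest of the Ccnt1 TPM by kallisto was 24.1% on a decay transcript, 37.2% on retained-intron transcripts and 16.4% on a processed transcript. For Ccnt2 the coding share was 31.6% ± 2.12 (30.1% and 33.1%) and 27.0% by RSEM, with 53.6% of TPM on retained-intron transcripts, and 11.4% of genes had a lower share. The retained-intron transcripts Ccnt2-204 (18.6% and 18.8%) and Ccnt2-205 (31.1% and 22.8%) and the processed transcript Ccnt2-207 (16.6% and 13.2%) held most of the rest. Another retained-intron transcript, Ccnt2-206, held 3.73% and 5.90% by kallisto and 14.3% and 11.6% by RSEM. No test was made of these shares.

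The unit matters most for Ccnt1. Its coding transcript Ccnt1-208 is 7397 nt long, while several noncoding ones are short, such as Ccnt1-203 at 683 nt, and TPM counts molecules and not reads. As a share of kallisto estimated counts, coding transcripts held 58.5% of Ccnt1, 38.2% of Ccnt2, 71.0% of Cdk9 and 84.5% of Larp7, with a median of 85.9% over the same genes. On that scale 19.3% of genes had a lower share than Ccnt1 and 8.07% a lower share than Ccnt2. Both cyclins were thus below the median on either scale, and by kallisto the Ccnt2 coding share lay between 30.1% and 40.8% in each library and unit. A transcript with a retained intron, Ccnt1-202, holds 251 31-mers that occur in 613 other genes, so its reads may be shared. No other Ccnt1 transcript has any such 31-mer.

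**Figure D2:**
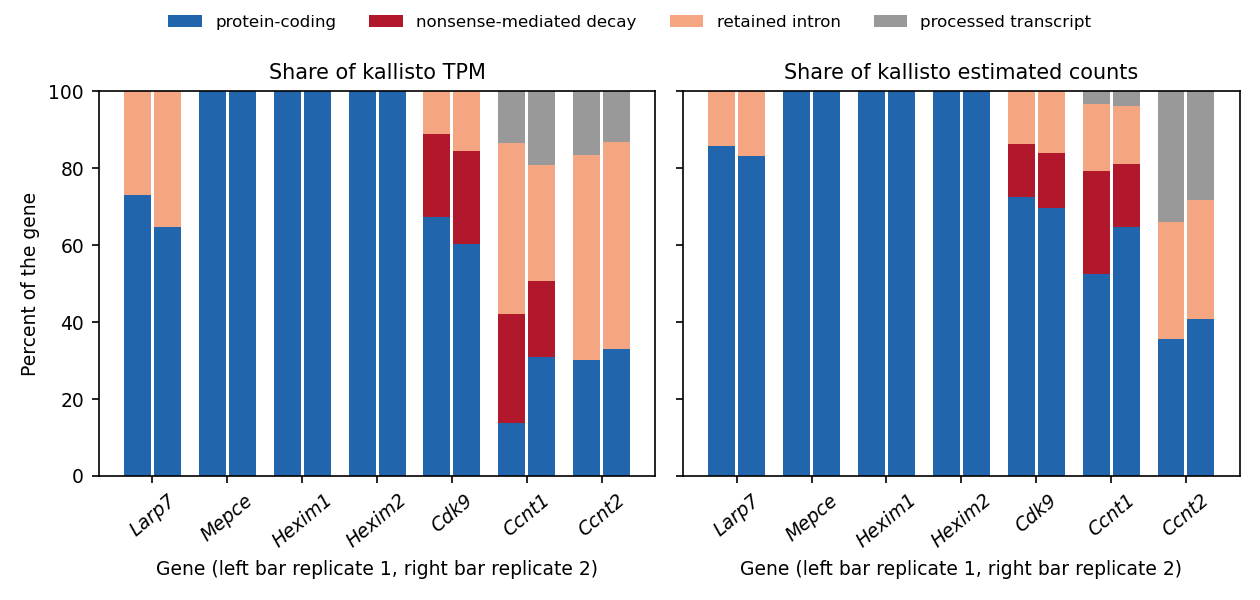
Percent of each gene's signal on protein-coding, nonsense-mediated decay, retained-intron and processed transcripts, as kallisto TPM (left) and kallisto estimated counts (right), with 1 bar per library. Ccnt1 and Ccnt2 have the smallest coding shares by TPM (22.4% and 31.6%), and Ccnt1 moves to 58.5% by counts.

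Individual isoforms were less settled than the genes. Cdk9-201 encodes 372 codons and Cdk9-202 encodes 321. By kallisto Cdk9-202 held 19.7% of the gene in replicate 1 and 0.555% in replicate 2, while RSEM gave it 33.6% and 23.2%. RSEM placed Cdk9-201 at 16.5 and 24.2 TPM and Cdk9-202 at 25.9 and 19.0 TPM, and the deposited intervals of both isoforms overlapped in each library. The order of these isoforms was therefore not resolved. The coding transcripts Ccnt1-201 and Ccnt1-208 both encode 724 codons. Ccnt1-201 was at 0.00759 and 10.5 TPM by kallisto and at 0.51 and 7.11 TPM by RSEM, and Ccnt1-208 at 9.12 and 9.92 TPM by kallisto and at 9.50 and 8.95 TPM by RSEM. In replicate 1 Ccnt1-201 was the lower by both quantifiers, with deposited intervals that did not overlap, while in replicate 2 the intervals overlapped and the quantifiers differed in the order. The leading Ccnt1 transcript in replicate 1 was the decay transcript Ccnt1-206 by both quantifiers, at 28.4% (kallisto) and 35.5% (RSEM). For Ccnt2, the longer-coding Ccnt2-201 (723 codons) was listed at 0 in both libraries by both quantifiers, and the coding signal was all on Ccnt2-202 (657 codons), at 5.66 and 6.68 TPM by kallisto.

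The libraries differed for some members by more than counting error. For each gene an exact binomial test, two-sided, set the rounded counts of one library against the other given sizes scaled by TMM (trimmed mean of M-values). Benjamini-Hochberg adjustment covered the 15118 genes that reached 10 counts summed over the pair. The test compares these libraries and not conditions. Of the 8 members, 4 had an adjusted p below 0.05, against a background of 32.1% of all genes tested. Ccnt1, Ccnt2 and Cdk9 (3 members) were called higher in replicate 1, where the background was 15.0%, and Rn7sk (1 member) higher in replicate 2, where it was 17.0%. The median log2 ratio of replicate 1 over replicate 2 was 0.09 for the members and 0.00 over all genes tested.

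The called differences were small. For 7SK, with counts of 196553 and 247204, the log2 ratio was -0.31, and its adjusted p by the exact binomial test had a log10 of -1133. Ccnt2 had 1692 and 1422 counts and a log2 ratio of 0.27 (exact binomial test, adjusted p = 2.46e-06). Cdk9 had 2095 and 1931 counts with a log2 ratio of 0.13 (adjusted p = 0.0128 by the same exact test), and Ccnt1 had 2914 and 2714 counts with 0.12 (exact test, adjusted p = 0.00847). Mepce (-0.18, adjusted p = 0.114 by the exact test), Larp7 (0.07), Hexim1 (-0.02) and Hexim2 (0.54) did not pass. The common biological coefficient of variation over 13089 genes was 0.164, which corresponds to an SD of 0.33 for such a log2 ratio, so none of the 4 called ratios lay beyond 1 SD of the spread between these replicates. Of all genes tested, 59.3% had a smaller absolute ratio than Rn7sk and 27.2% a smaller one than Ccnt1.

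**Figure D3:**
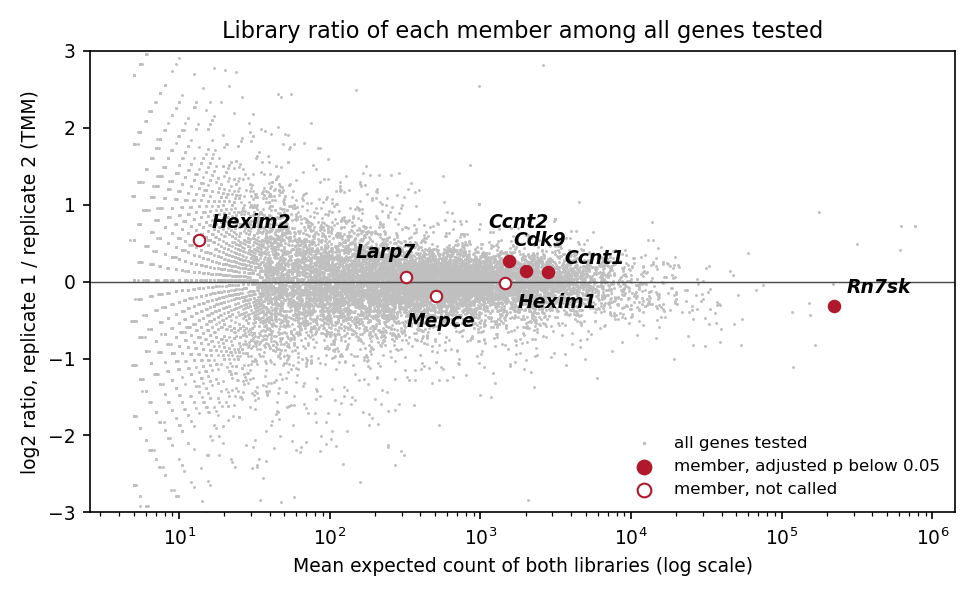
Log2 ratio of replicate 1 over replicate 2 (TMM scaling) against the mean expected count (log axis) for each gene tested (grey) and the 8 members (red, filled where the adjusted p is below 0.05). The members lie within the cloud of all genes, with 7SK at -0.31 and the called P-TEFb genes between 0.12 and 0.27; 155 genes lie outside the axis limits.

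The direction of the P-TEFb genes depends on the scaling. ERCC scaling shifts all genes alike towards replicate 2, with the median of all genes at -0.74, so a ratio below 0 by TMM stays below 0 and a small positive one turns negative. It called 7 of the 8 members, against 75.1% of all genes, and all 7 were higher in replicate 2, as were all but 1.65% of the genes called. Under that scaling Larp7 was at -0.68, Cdk9 at -0.61, Ccnt1 at -0.62 and Ccnt2 at -0.47, each with the opposite sign to TMM, as had Hexim2, which was not called (-0.20). With total counts, Cdk9 (0.10) and Ccnt1 (0.08) were no longer called and Mepce (-0.22) was, and 3 of 8 members were called against 32.4% of all genes. The kallisto counts likewise called Rn7sk, Ccnt2 and Mepce (3 of 8, against 31.1%). TPM ordered the libraries differently from TMM-scaled counts for Cdk9, Ccnt1, Larp7 and Hexim2, which were higher in replicate 2 by TPM. With TPM rescaled over protein-coding genes alone, Cdk9 (234.6 and 180.1), Ccnt1 (170.9 and 151.9) and Larp7 (26.5 and 23.0) were higher in replicate 1, as with TMM. Mepce (32.1 and 28.6) and Hexim1 (59.1 and 51.5) were then also higher in replicate 1, opposite to TMM. Hexim2 (1.43 and 1.65) stayed higher in replicate 2, so this rescaling did not restore the TMM direction for each member. For Ccnt1 the effective length also fell from 2380 to 2118 nt between the libraries.

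**Figure D4:**
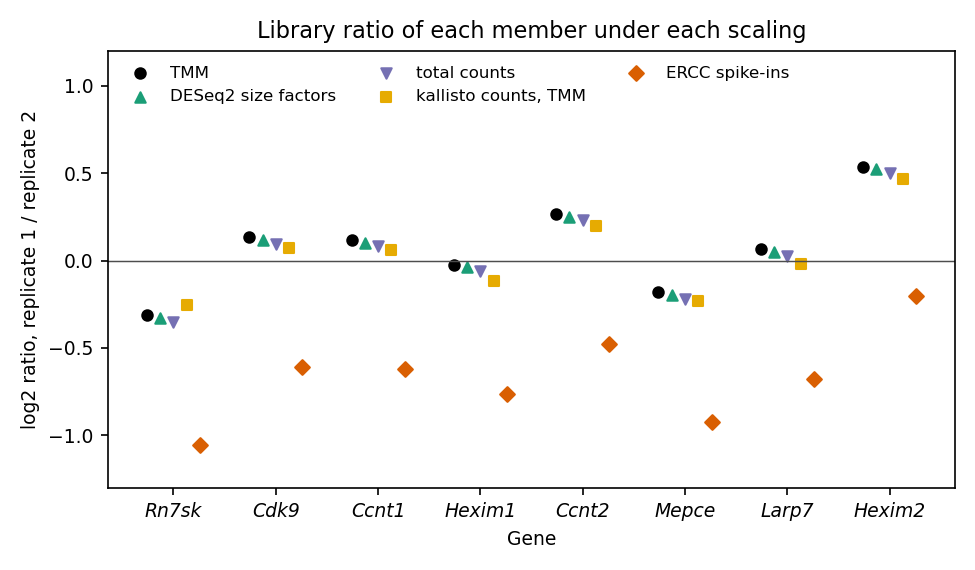
Log2 ratio of replicate 1 over replicate 2 for each member under 5 scalings or count sources (symbols), with 1 value per member and scaling. Rn7sk is below 0 under each, while Cdk9, Ccnt1 and Ccnt2 are above 0 under all but the ERCC scaling, where they lie between -0.62 and -0.47.

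Of the 6 other RNA polymerase III entries tested, 5 were called with the opposite direction to 7SK by TMM. The background was 15.0% higher in replicate 1, but these 5 entries cover only 3 RNAs and are not independent. They are 7SL, found in the signal recognition particle (Rn7s1 and Rn7s2), the RNase MRP RNA (2 Rmrp entries) and the RNase P RNA (Rpph1). The other tested entry, Vaultrc5, was not called by TMM and pointed the same way as 7SK, with 12 and 19 counts and a log2 ratio of -0.62. With ERCC scaling all 6 entries, like 7SK (-1.06), were called higher in replicate 2. The 5 entries then lay between -0.61 (Rpph1) and -0.02 (Rn7s1 and Rn7s2). By kallisto counts the 2 Rmrp entries were called in opposite directions (14.7 and -2.48). A ratio within a library needs no scaling between libraries. The 7SK level was 8.90% of the summed 7SL level in replicate 1 and 18.2% in replicate 2, and kallisto gave 8.92% and 18.2%. Relative to Rpph1 it was 3.98 and 5.42 times as high, and relative to the 2 Rmrp entries together 6.46 and 10.6 times. All 3 ratios were higher in replicate 2, also by kallisto, and with 1 value per library none was tested. The 2 Rn7s entries have identical values, and kallisto put all Rmrp signal of replicate 2 on 1 of the 2 entries, so these RNAs are given as sums.

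The wider elongation machinery was described from 6 lists of protein-coding genes. Their counts of called genes are to be read against 32.1% of all genes tested, 15.0% higher in replicate 1 and 17.0% higher in replicate 2. Recruiters of P-TEFb and subunits of the super elongation complex had a median of 22.3 ± 3.49 TPM, with the bromodomain protein Brd2 at 81.5 ± 14.0 TPM and Ell3 lowest at 0.065 TPM. Of its 11 tested genes 3 were called (background 32.1%), all 3 higher in replicate 2 (background 17.0%), with the largest ratio at Mllt1 (-0.30). Pausing and elongation factors had a median of 17.99 ± 0.385 TPM, with the DSIF subunits Supt4a (60.2 ± 21.9 TPM) and Supt5 (30.1 ± 4.38 TPM) highest and Leo1 lowest (5.31 TPM). Here 5 of 14 were called, near the background of 32.1%, 4 higher in replicate 1 and Supt4a (-0.53) higher in replicate 2. Cdk9 lay above each gene of the pausing list in both libraries, and its values fell between the Brd2 values of 71.6 and 91.5 TPM.

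Other kinases of the polymerase tail were lower than Cdk9. That list had a median of 10.6 ± 2.63 TPM, and its highest genes were Ccnk (39.4 ± 2.50 TPM) and Cdk13 (37.7 ± 0.778 TPM), which form an elongation-phase kinase, while Mnat1 of the CDK-activating kinase was at 2.52 TPM. Of 9 genes 2 were called (background 32.1%), 1 in each direction, and Ccnc had the largest called ratio (-0.29). Release factors and other proteins that bind 7SK had the highest median, 38.6 ± 4.72 TPM, with Hnrnpa2b1, an RNA-binding protein that can take up 7SK freed of P-TEFb, at 209.1 ± 9.65 TPM and the phosphatase Ppp1ca at 146.1 ± 47.9 TPM. The lowest, Ddx21, was at 12.6 TPM. In this list 4 of 14 were called, again near the 32.1% of all genes, 2 in each direction, with Ppp1ca at -0.43.

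Factors that make or protect 7SK were scarce by comparison with the RNA. The median over 16 genes was 6.37 ± 0.559 TPM, with the La protein Ssb at 37.1 ± 9.36 TPM, the initiation factor Bdp1 at 16.9 ± 0.502 TPM and the polymerase III subunit Polr3g at 0.95 TPM. Of these 16 genes 5 were called, a share near the 32.1% of all genes, 3 higher in replicate 1 and 2 in replicate 2, including Snapc5 (-0.58). The list of the polymerase II tail subunit and its phosphatases had a median of 28.6 ± 6.10 TPM, with Ctdsp1 (57.0 ± 7.49 TPM) and Ctdsp2 (44.5 ± 5.63 TPM) highest and Rpap2 (2.05 TPM) lowest. In it 4 of 7 were called (background 32.1%), all 4 higher in replicate 2 (background 17.0%), with Ssu72 at -0.43. The ERCC shift of all genes turned the calls of these 6 lists towards replicate 2.

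**Figure D5:**
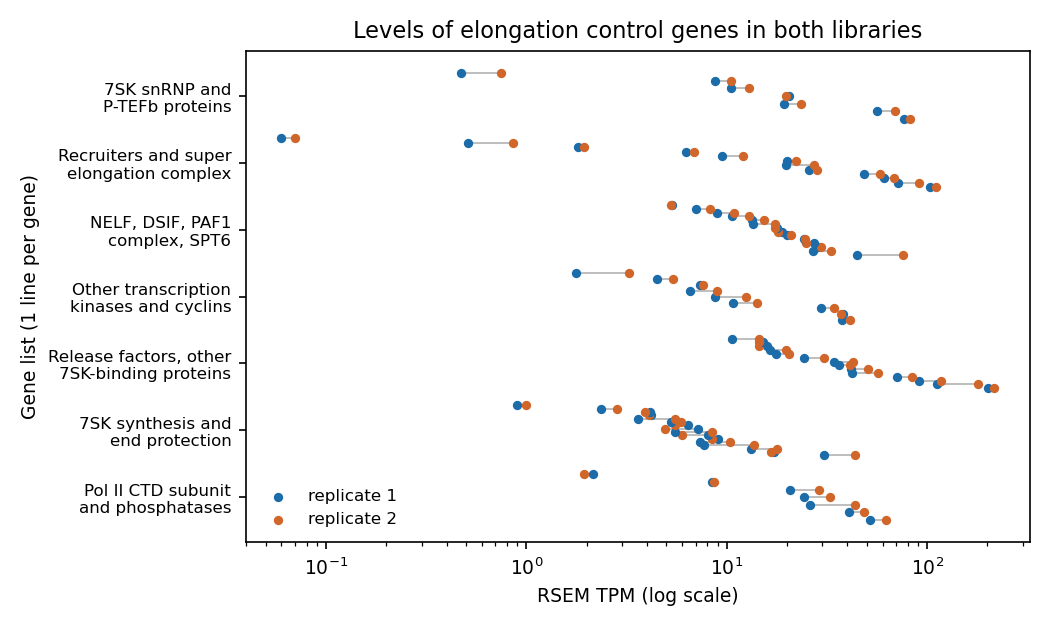
RSEM TPM (log axis) of the 7 protein-coding members and of 6 lists of elongation control genes, with 1 line per gene joining replicate 1 (blue) and replicate 2 (orange). Cdk9 lies above each gene of the pausing list in both libraries, and Hexim2 lies below 1 TPM.

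The promoters of the members were compared as sequence, and no link between a motif and a level or library ratio was tested. RefSeq promoter windows (GRCm38.p6, 250 bases before to 50 bases after the annotated start) were matched for 5 of the 8 members, namely Larp7, Hexim1, Cdk9, Ccnt1 and Ccnt2. A set of 4 motifs were searched on both strands after the sequences had been seen. The core of the TATA box was searched as TATAA, and the box bound by NF-Y as CCAAT. A site of the ETS factor type was searched as CCGGAAG, and the cyclic AMP response element as TGACGTCA. No matches overlapped in these windows. The Cdk9 and Ccnt1 windows are shown for the motif they share, and the Hexim1 window for its TATAA. RefSeq starts can differ from the GENCODE gene bounds given above, as they do for Cdk9, Ccnt1 and Hexim1. The Cdk9 and Ccnt1 windows lie wholly inside those bounds, downstream of the outermost GENCODE start. For Hexim1 the GENCODE start lies within the window. The windows are written 5′ to 3′ along the gene, with motif matches in capitals, those of the reverse strand included.
Cdk9, chr2:32712735-32713034, minus strand: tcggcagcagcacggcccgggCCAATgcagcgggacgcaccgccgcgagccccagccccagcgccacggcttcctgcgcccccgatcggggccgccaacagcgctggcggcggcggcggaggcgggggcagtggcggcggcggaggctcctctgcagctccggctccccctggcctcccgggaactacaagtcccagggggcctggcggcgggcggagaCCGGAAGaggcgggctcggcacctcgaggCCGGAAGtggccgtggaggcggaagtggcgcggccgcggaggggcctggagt
Ccnt1, chr15:98567687-98567986, minus strand: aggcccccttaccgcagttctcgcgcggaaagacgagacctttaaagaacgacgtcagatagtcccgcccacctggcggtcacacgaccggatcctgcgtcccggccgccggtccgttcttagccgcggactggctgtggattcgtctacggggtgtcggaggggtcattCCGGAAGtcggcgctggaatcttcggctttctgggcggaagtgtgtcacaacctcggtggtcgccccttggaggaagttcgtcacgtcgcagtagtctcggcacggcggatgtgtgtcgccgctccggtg
Hexim1, chr11:103116075-103116374, plus strand: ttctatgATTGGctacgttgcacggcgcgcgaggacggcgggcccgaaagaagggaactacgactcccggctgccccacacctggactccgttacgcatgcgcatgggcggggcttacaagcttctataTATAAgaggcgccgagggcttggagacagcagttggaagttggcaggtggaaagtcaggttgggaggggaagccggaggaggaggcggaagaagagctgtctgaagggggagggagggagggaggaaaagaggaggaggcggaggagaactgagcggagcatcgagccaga
CCGGAAG occurred 2 times in the Cdk9 window and 1 time in the Ccnt1 window, and in 8.86% of all 32817 promoters. Ccnt2, Larp7 and Hexim1 had no CCGGAAG in this window. TATAA occurred only in Hexim1 among the 5 (24.9% of all promoters), and TGACGTCA only in Larp7, 2 times (1.79% of all promoters). CCAAT on either strand was in Larp7, Hexim1, Cdk9 and, 3 times, Ccnt2 (37.4% of all promoters). The windows had a GC content of 61.0% to 78.3%, against a median of 52.7%. A match is a description of letters and does not show that a factor binds there. The Ccnt1 gene overlaps the antisense RNA 9330020H09Rik, which had 57 and 60 counts.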

How the data were processed

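Each library had 3 tables of deposited values. Per the accompanying notes, the authors derived the gene table and 1 transcript table (RSEM layout, with expected counts, TPM, FPKM and interval bounds) from alignments to the GENCODE M21 transcriptome of mm10, and a second transcript table (kallisto layout, with estimated counts and TPM) from the FASTQ file. Which programs and aligner were run is not given in the sources used here. FPKM, as deposited by the authors, served only as an alternative unit. The deposited percent columns (each transcript's share of its gene) and the deposited signal columns (lower and upper bounds of the TPM interval) stand in the same tables, as the authors made them.

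Expected counts were rounded for the exact binomial test, with TMM sizes from edgeR 4.0.16 and, as an alternative, DESeq2 1.42.0 size factors, in R 4.3.3. Log2 ratios had 0.5 added to each count. Ratios between genes, the likeness measure and the comparison of quantifiers had 0.1 TPM added. Python 3.11.15 with pandas 2.3.3, scipy 1.17.1 and numpy 2.4.6 did the rest, and matplotlib 3.10.9 drew the figures. The comparison was run on simulated data drawn with counting error alone, which the test itself assumes. That simulation therefore does not show how the test behaves with the spread of these libraries. With 1 group, edgeR's and DESeq2's own tests had no contrast. Over 15118 genes the counts differed beyond counting error (chi-square per degree of freedom 47.2), so the libraries are not copies of each other. Intervals and p-values cover counting error alone: without molecular identifiers, reads need not be independent molecules.

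Members and gene lists were chosen with earlier results of these data known. Named genes are all members, their leading transcripts and those with at least 10% of the gene in both libraries, and of each list the 2 highest, the lowest and the called gene with the largest ratio, with the 3 genes most like Rn7sk, Cdk9 and Hexim1. A gene that this rule names in one list is not reported here. Alternatives were other scalings, count sources, count minimums, pseudocounts, units and single libraries. Shared 31-mers were counted over all GENCODE M21 transcripts.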

Additional observations from a re-analysis of the deposited data

How the results depend on the processing

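Between the libraries 4 members were called, 3 or 4 under 5 of the 6 other settings and 7 with ERCC scaling. ERCC scaling reversed Larp7 (-0.68), Cdk9 (-0.61), Ccnt1 (-0.62) and Ccnt2 (-0.47), and the uncalled Hexim2 (-0.20), through 1 shift of all genes alike. TPM rescaled over protein-coding genes moved all 8 levels (Rn7sk 122840, Cdk9 207.4). The log2 ratio of Hexim1 to Hexim2 was 4.27 by kallisto and 5.17 with nothing added, that of Larp7 to Mepce was -0.57 by kallisto, and that of the cyclins to Cdk9 was 0.24 by kallisto. With single libraries the cyclins to Cdk9 ranged from -0.0081 to 0.12. The other 3 ratios between members moved by less than their SD. No member was apart between the quantifiers at 2-fold (0) or at 1.5-fold (0). Mean effective length, library sizes without 7SL and 7SK, and coding shares of counts were alternatives chosen after seeing the data. Library sizes without 7SL and 7SK kept each member's direction and call. No paired analysis was possible because there is 1 group. Depth limits Hexim2, with 16 and 11 counts, and isoforms that share most of their sequence.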
